A study of Mus musculus with 25 samples.

Results

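The 10 core genes of the circadian clock (Arntl, Clock, Per1, Per2, Per3, Cry1, Cry2, Nr1d1, Nr1d2 and Dbp) were followed through single neurons of the mouse mediobasal hypothalamus. They were taken by symbol from a table of 30903 gene symbols, each of the 10 stood on 1 row, and all of them were listed above 0 in some cells. The material was 1 group of 25 hand-picked cells carrying green fluorescent protein (GFP), and nothing was set against it in the series. The mice were males of the strain (C57BL/6 x DBA)F2 with an average age of 63 days. They carried RIP-Cre, in which a rat insulin promoter drives Cre recombinase, and a viral GFP (AAV-loxSTOPlox-GFP) that Cre switches on. Arcuate nucleus and median eminence of 2 such mice were pooled, and no label ties a cell to a mouse. The 25 cells are therefore 1 sample and not replicates. No test between groups was possible, and correlations are descriptions with no p-value. The labels do not state the hour at which the tissue was taken.

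The clock is a feedback loop of transcription. The proteins CLOCK and BMAL1 (the product of Arntl) pair on E-box motifs and activate the Per, Cry, Nr1d and Dbp genes. PER and CRY proteins return to the nucleus and block that pair, while REV-ERB alpha and beta (the products of Nr1d1 and Nr1d2) repress Arntl in competition with ROR receptors. DBP binds D-box motifs and carries the rhythm to output genes. In rodent tissues with a running clock, Arntl transcripts peak at the opposite phase to Dbp and Nr1d1. The suprachiasmatic nucleus is the master clock of the brain, and other hypothalamic nuclei, the arcuate nucleus among them, keep rhythms of their own.

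Promoter windows of these genes are printed to show where the letters of fixed motifs occur in them. The windows come from RefSeq (GRCm38.p6), run from 250 bases before to 50 bases after an annotated start, and were found for 9 of the 10 genes, in 13 windows in all. Each was searched on both strands for CACGTG (E-box), CACGTT (variant E-box), TTATGTAA (D-box), AGGTCA (the core of the site of REV-ERB and ROR receptors) and TGACGTCA (cAMP response element). No 2 matches overlapped. The 5 windows below hold matches of 4 of these motifs, written in capitals; a match on the other strand reads as its reverse complement. They lie at chr7:113207261-113207560 on the plus strand (Arntl, window 2), chr11:69098699-69098998 on the plus strand (Per1, window 1), chr4:151044616-151044915 on the minus strand (Per3), chr10:85185005-85185304 on the minus strand (Cry1) and chr11:98775328-98775627 on the minus strand (Nr1d1), and each is written 5′ to 3′ on its own strand.
Arntl: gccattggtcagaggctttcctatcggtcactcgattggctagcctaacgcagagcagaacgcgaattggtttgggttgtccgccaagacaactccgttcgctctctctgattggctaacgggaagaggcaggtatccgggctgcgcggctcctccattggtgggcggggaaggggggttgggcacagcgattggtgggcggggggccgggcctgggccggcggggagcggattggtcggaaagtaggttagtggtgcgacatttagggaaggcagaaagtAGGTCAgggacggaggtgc
Per1: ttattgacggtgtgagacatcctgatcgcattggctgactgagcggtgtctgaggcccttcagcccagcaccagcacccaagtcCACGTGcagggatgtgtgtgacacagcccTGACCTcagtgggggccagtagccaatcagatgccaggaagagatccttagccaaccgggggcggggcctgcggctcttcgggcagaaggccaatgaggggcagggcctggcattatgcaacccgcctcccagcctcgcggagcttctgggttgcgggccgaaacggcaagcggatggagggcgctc
Per3: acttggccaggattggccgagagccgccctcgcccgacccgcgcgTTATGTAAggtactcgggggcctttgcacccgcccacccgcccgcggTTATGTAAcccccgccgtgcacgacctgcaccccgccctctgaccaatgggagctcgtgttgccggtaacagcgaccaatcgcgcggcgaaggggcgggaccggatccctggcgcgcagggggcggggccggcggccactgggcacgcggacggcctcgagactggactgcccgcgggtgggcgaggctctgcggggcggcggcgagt
Cry1: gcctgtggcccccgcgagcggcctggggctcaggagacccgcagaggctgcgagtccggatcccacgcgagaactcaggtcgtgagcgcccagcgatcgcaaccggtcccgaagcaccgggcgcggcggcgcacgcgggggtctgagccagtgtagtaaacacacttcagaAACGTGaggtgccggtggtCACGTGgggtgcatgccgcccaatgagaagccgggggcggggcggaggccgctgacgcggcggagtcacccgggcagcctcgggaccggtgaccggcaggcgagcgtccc
Nr1d1: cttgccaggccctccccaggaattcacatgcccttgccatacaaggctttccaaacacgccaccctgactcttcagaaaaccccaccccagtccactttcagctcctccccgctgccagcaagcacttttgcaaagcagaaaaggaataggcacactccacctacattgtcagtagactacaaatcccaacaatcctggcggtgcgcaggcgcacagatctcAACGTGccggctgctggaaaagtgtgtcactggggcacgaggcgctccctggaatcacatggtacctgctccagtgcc

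Per3 held 2 D-box matches, from bases 46 and 93 of its window, and was the 1 gene among the 9 with this motif. It was thus in 1 of the 13 windows (7.69%), against 0.938% of all 32851 windows. The exact E-box was found in Per1 (from base 85) and Cry1 (from base 191), in 2 of the 13 windows (15.4%), against 7.15% of all windows. The variant E-box was present in Cry1, Cry2 and Nr1d1, in 3 of the 13 windows (23.1%), against 4.68% of all windows. The receptor core AGGTCA was found in Arntl, Clock, Per1 and Nr1d2, in 4 of the 13 windows (30.8%), against 16.3% of all windows. Arntl, Clock and Per1 each had more than 1 window and so more chances of a match. The cAMP response element was in none of the 13 windows, against 1.79% of all windows. The Dbp window held no match of the 5 motifs. A match of these letters is a description of the window and does not show that a factor binds there. The lack of a match says nothing about sequence outside the window.

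The values are RPKM, reads scaled to gene length and to the read total of the cell, so levels can be set side by side between genes. Detected means 10 RPKM or more. Read totals, inferred from the spacing of the smallest values, were 853900 to 2901000 per cell with a median of 1756000, and 3843 to 6183 genes reached 10 RPKM per cell. At the median depth 10 RPKM stood for 52.6 reads of Dbp, the shortest of the 10 genes by exon length, and 241 reads of Clock, the longest. A value of 0 allowed at most 0.571 RPKM of Dbp and 0.125 RPKM of Clock at that depth, taking 3 reads as the limit of a count of 0. Intervals of shares are exact Clopper-Pearson 95% intervals. Reads of Smart-Seq2 libraries carry no molecular identifiers, so intervals and limits cover counting error only.

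The cells were neurons by their markers. Of 8 neuronal markers, 5 to 8 were detected per cell, and Snap25, Tubb3, Stmn2 and Uchl1 were detected in all 25. No cell held more than 1 marker of any list for astrocytes, oligodendrocytes, microglia, endothelium, mural cells or tanycytes and ependyma, and the precursor markers Pdgfra and Cspg4 were listed at 0 throughout. Pecam1 of endothelium was detected in 4 cells at up to 26.7 RPKM, while Mog, Mobp, Mag, Gfap, Cldn5, C1qa and Rax were listed at 0. Of 9 genes that mark suprachiasmatic neurons, Vip, Nms and Grp were listed at 0 in all 25 cells, Vipr2 stayed below 10 RPKM, Avp was detected in 1 cell and Prok2 in 2. Six6, which is also expressed in the arcuate nucleus, was detected in 23 cells, and Lhx1 and Rgs16 in 7 and 6. No libraries were identical, and the Spearman correlation between cells over genes was 0.405 to 0.594. In 6 cells (1, 3, 5, 6, 29 and 31) the nuclear transcript Malat1 did not exceed 16.6 RPKM.

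Transcripts of clock genes were present in every cell, but no cell had all 10 genes at 10 RPKM or more. Each cell held 3 to 8 of the 10 genes at 10 RPKM or more, with a median of 5 (SD 1.75 over cells), and 4 to 10 above 0, with all 10 above 0 in cell 26. Cells 26 and 27 held 8 genes each, while 6 cells held only 3. In most cells (at least 13 of 25) 7 of the 10 genes were detected, where 13.5% of all symbols in the table reach that share. Of the 250 values, 129 (51.6%) were at 10 RPKM or more, 72 (28.8%) were listed at 0, and 49 lay between (35 from 1 to below 10 RPKM and 14 below 1 RPKM). Over all genes that reached 10 RPKM in at least 1 cell, 37.7% of values were at that level and 47.5% were listed at 0. The number of clock genes per cell followed neither depth (Spearman correlation -0.124 over 25 cells) nor the number of genes detected (0.283) closely.

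**Figure D1:**
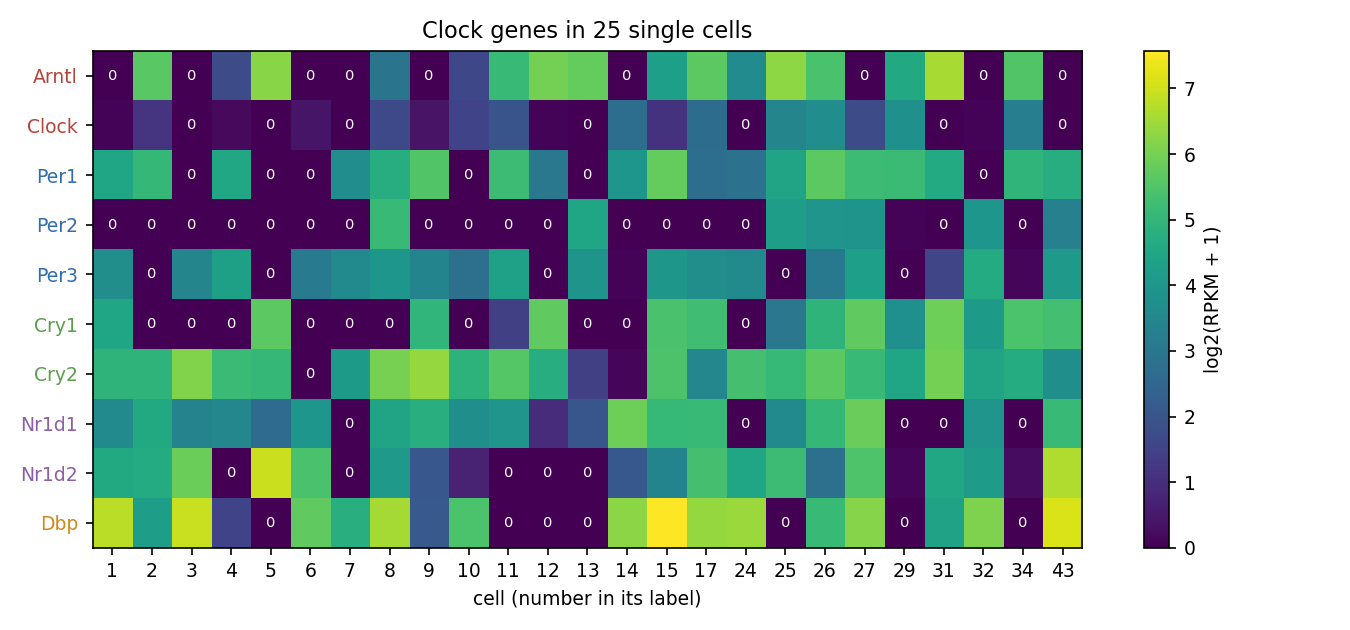
Level of the 10 clock genes (rows, coloured by role) in each of the 25 cells (columns, numbered as in their labels), as log2(RPKM + 1); a white 0 marks a value listed at 0. Most cells show a mosaic of high values and zeros, with Dbp brightest in cell 15 at 189.7 RPKM and Per2 at 0 in 17 cells.

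The activators were unequal. Arntl ranged from 0 to 94.2 RPKM with a median of 11.7 RPKM, and was detected in 13 cells (52%, interval 31.3 to 72.2%). It was high in cells 31, 25, 5 and 12, at 94.2, 76.4, 74.2 and 62.9 RPKM, and listed at 0 in 9 cells. Clock ranged from 0 to 12.9 RPKM with a median of 0.36 RPKM, and reached 10 RPKM in 2 cells (8%, interval 0.984 to 26.0%), 26 and 29. Clock was nevertheless above 0 in 18 cells, 12 of them at 1 RPKM or more, so that it was mostly low rather than unseen. In cells 1, 12 and 32 it stood at only 0.05, 0.06 and 0.06 RPKM. These values are below what a value of 0 allowed at the median depth. Both activators were at 10 RPKM or more in cells 26 and 29. Of the 13 Arntl cells 9 had Clock above 0, cell 12 among them. The exons of Clock add up to 13727 bases in the annotation, so 10 RPKM of it stands for more reads than of any other clock gene. For the same reason a value of 0 allowed less RPKM of Clock than of the other clock genes, at most 0.125 at the median depth.

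The paralogues that can stand in for the activators did not fill the remaining cells. Npas2, whose protein can replace CLOCK, was detected in 3 cells at up to 51.2 RPKM, and 1 of them was an Arntl cell. Clock or Npas2 was thus at 10 RPKM or more in 5 cells. Arntl2, the paralogue of Arntl, was detected in 7 cells at up to 74.2 RPKM, 5 of them Arntl cells, which brought the cells with either to 15. Npas2 and Arntl2 were named after their values were seen.

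Among the period genes Per1 was the most frequent. Per1 ranged from 0 to 54.5 RPKM with a median of 21.6 RPKM, and was detected in 16 cells (64%, interval 42.5 to 82.0%), with the highest value in cell 15. Per2 ranged from 0 to 33.5 RPKM with a median of 0, and was detected in 6 cells (24%, interval 9.36 to 45.1%). It was listed at 0 in 17 cells and highest in cell 8. Per3 ranged from 0 to 24.4 RPKM with a median of 9.91 RPKM, and was detected in 12 cells (48%, interval 27.8 to 68.7%). Its values were close together: 8 cells lay between 0 and 10 RPKM, and the coefficient of variation of 0.807 exceeded that of only 3.11% of the 4341 genes whose mean lies within a factor of 2 of its own. In order of the median the period genes ran Per1, Per3, Per2, but their ranges overlapped, and 2 cells had all 3 at 10 RPKM or more while 5 had none.

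Per1 is also an acute response gene, induced through cAMP signalling and by glucocorticoids, so genes of both responses were read beside it. The activity-response genes were abundant: Fos had a median of 423 RPKM in these cells and Dusp1 228 RPKM. All 8 listed genes were detected in most cells, as were 13.5% of all symbols in the table. Spearman correlations of Per1 with the 8 genes were between 0.0246 and 0.293. Fos ranged from 0 to 567 RPKM in the 6 cells with Per1 at 0. Correlations with the glucocorticoid receptor gene Nr3c1 and the response genes Fkbp5, Tsc22d3 and Sgk1 ran from -0.232 to 0.184. None of these reached 0.4 in size.

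The cryptochromes, the main repressors of the loop, included the most widely detected clock gene. Cry2 ranged from 0 to 82.2 RPKM with a median of 29.2 RPKM, and was detected in 22 cells (88%, interval 68.8 to 97.5%). It was listed at 0 in cell 6 alone, and stood at 0.09 and 1.7 RPKM in cells 14 and 13. Cry1 ranged from 0 to 59.0 RPKM with a median of 13.1 RPKM, and was detected in 13 cells (52%, interval 31.3 to 72.2%) with 10 at 0. Few cells were intermediate for Cry1: 2 lay between, at 1.68 and 7.07 RPKM, and the 13 cells above started at 13.1 RPKM. At least 1 period gene and 1 cryptochrome gene were detected together in 18 cells.

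Genes of the REV-ERB receptors were each found in most of the cells. Nr1d1 ranged from 0 to 58.8 RPKM with a median of 12.6 RPKM, and was detected in 16 cells (64%, interval 42.5 to 82.0%), led by cells 14 and 27 at 58.8 and 56.2 RPKM. Nr1d2 ranged from 0 to 123 RPKM with a median of 16.2 RPKM, and was detected in 13 cells (52%, interval 31.3 to 72.2%). Cells 5 and 43 were highest, at 123 and 100.1 RPKM. Both receptor genes were detected in 9 cells and neither in 5. The 3′ end of Nr1d1 overlaps Thra, the thyroid hormone receptor alpha gene, on the opposite strand by 263 exon bases, or 8.55% of the exons of Nr1d1. The libraries mark no strand, so reads of that stretch cannot be told apart. Thra was detected in 23 cells, among them all 5 cells in which Nr1d1 was at 0, and the 2 genes had a Spearman correlation of 0.0471.

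The output factor Dbp gave the highest values of the set. Dbp ranged from 0 to 189.7 RPKM with a median of 33.2 RPKM, and was detected in 16 cells (64%, interval 42.5 to 82.0%). It was the leading clock gene of 13 cells, against 6 led by Arntl, 4 by Cry2 and 1 each by Per1 and Nr1d2. Cells 15, 43, 3 and 1 were highest, at 189.7, 141, 122 and 109 RPKM. It was listed at 0 in 7 cells and lay between 0 and 10 RPKM in 2 more, at 3.36 and 1.89 RPKM. Sphk2 on the opposite strand shares 539 bases, or 18.0%, with the exons of Dbp. It was at 0 in 7 of the 16 Dbp cells and at 10 RPKM or more in 3 of the 7 cells without Dbp, with a Spearman correlation of 0.0755 between them.

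**Figure D2:**
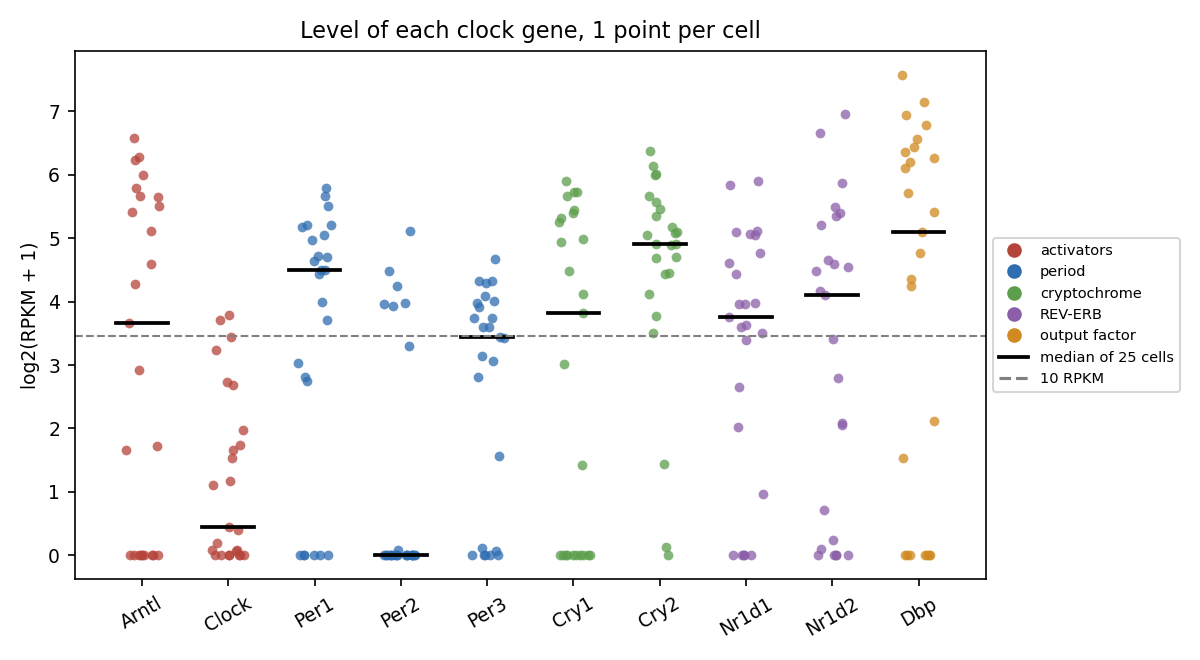
Level of each clock gene as log2(RPKM + 1), 1 point per cell (n = 25), with a black bar at the median and a dashed line at 10 RPKM; points are spread sideways at random. Dbp and Cry2 have the highest medians (33.2 and 29.2 RPKM), and Clock and Per2 the lowest (0.36 and 0 RPKM).

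By median the 10 genes ran Dbp, Cry2, Per1, Nr1d2, Cry1, Nr1d1, Arntl, Per3, Clock and Per2. Neighbours in that order overlapped widely, since every gene had a value of 0 in at least 1 cell and SDs of log2(RPKM + 1) over cells were between 1.35 (Clock) and 2.89 (Dbp). Dbp also stood higher than the others in variation for its mean: its coefficient of variation of 1.07 exceeded that of 74.3% of the 2681 genes of like mean, against 67.8% for Nr1d2, 54.1% for Arntl and 11.3% for Cry2.

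Arntl and Dbp were high in different cells. In the 7 cells with Dbp at 0, Arntl was 76.4, 74.2, 62.9, 54.6, 44.4, 33.4 and 23.2 RPKM (cells 25, 5, 12, 13, 34, 11 and 29), so that each of them was an Arntl cell. Conversely, the 9 cells with Arntl at 0 all had Dbp above 0, and 8 of them at 26.2 to 141 RPKM, the exception being cell 9 at 3.36 RPKM. No cell lacked both. The separation was not complete: 6 cells (2, 15, 17, 24, 26 and 31) held both at 10 RPKM or more, and cells 4 and 9 held neither. The Spearman correlation over the 25 cells was -0.584, the lowest of the 45 pairs of clock genes. Of 4179 other genes detected in most cells, 7 (0.168%) had a lower correlation with Arntl than Dbp had.

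**Figure D3:**
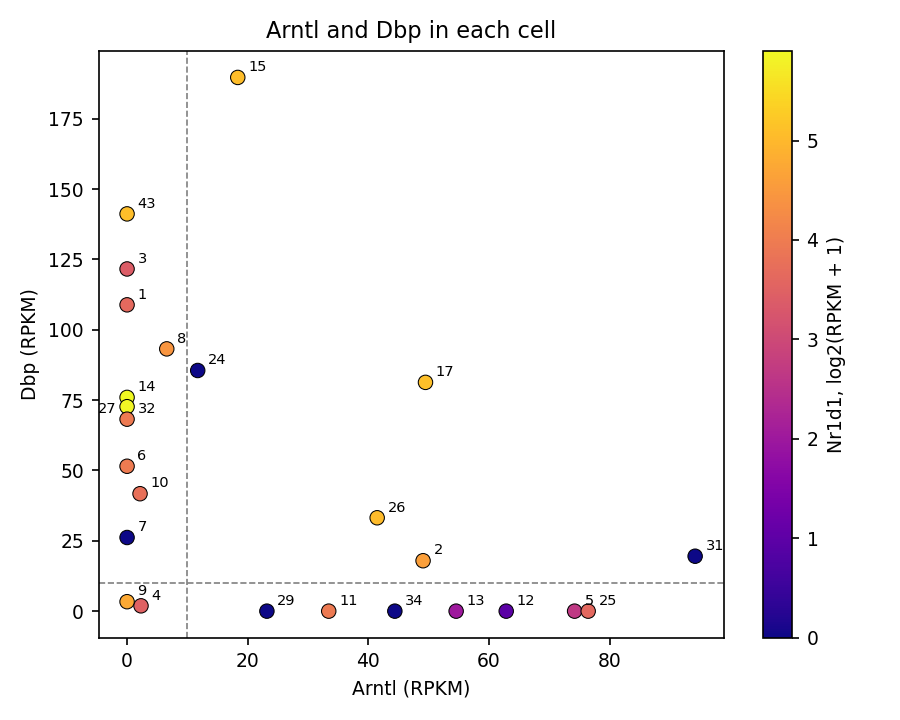
Dbp against Arntl in RPKM, 1 point per cell labelled with its number and coloured by Nr1d1 as log2(RPKM + 1); dashed lines mark 10 RPKM. For Dbp 7 cells lie at 0 and for Arntl 9 others do, while 9 cells are above 0 for both, 6 of them at 10 RPKM or more for both.

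Of the 7 other targets of the loop, 3 varied with Dbp and 4 showed little relation to it. Nr1d1 and Dbp correlated at 0.491, Nr1d2 and Dbp at 0.481, and Per3 and Dbp at 0.444. Arntl had -0.459 with Per3 and -0.352 with Nr1d1, but only -0.0988 with Nr1d2. Among these 3 genes, Nr1d1 had 0.341 with Nr1d2 and 0.322 with Per3, while Per3 and Nr1d2 had -0.0527. The correlation with Dbp was 0.0778 for Cry2, -0.0102 for Per1, -0.0197 for Per2 and -0.11 for Cry1. In the 16 Dbp cells, Nr1d1 was detected in 12, Nr1d2 in 11 and Per3 in 9. In the 7 cells with Dbp at 0, each of these 3 genes was detected in 2. Nr1d2 was also the clock gene that followed the number of genes detected in a cell most closely, at -0.558, and Dbp had -0.226 with it; the part of this number in the pair was not tested. Per1 and Cry2 (0.445) and Clock and Per1 (0.464) made up the remaining pairs of 0.4 or more in size. In all 7 of the 45 pairs (15.6%) were that large, 2 of them negative, where 5.18% of 83095386 pairs of genes above 0 in at least 3 cells were, and 2.01% at -0.4 or lower. The size of 0.4 and the pairs named were chosen after the values were seen. The median over the 45 pairs was 0.0643, beside 0.0068 over all those pairs, so most pairs of clock genes showed little relation in either direction. All 25 points of a correlation share 1 pool of mice and 1 preparation, and the values of a cell share its read total.

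**Figure D4:**
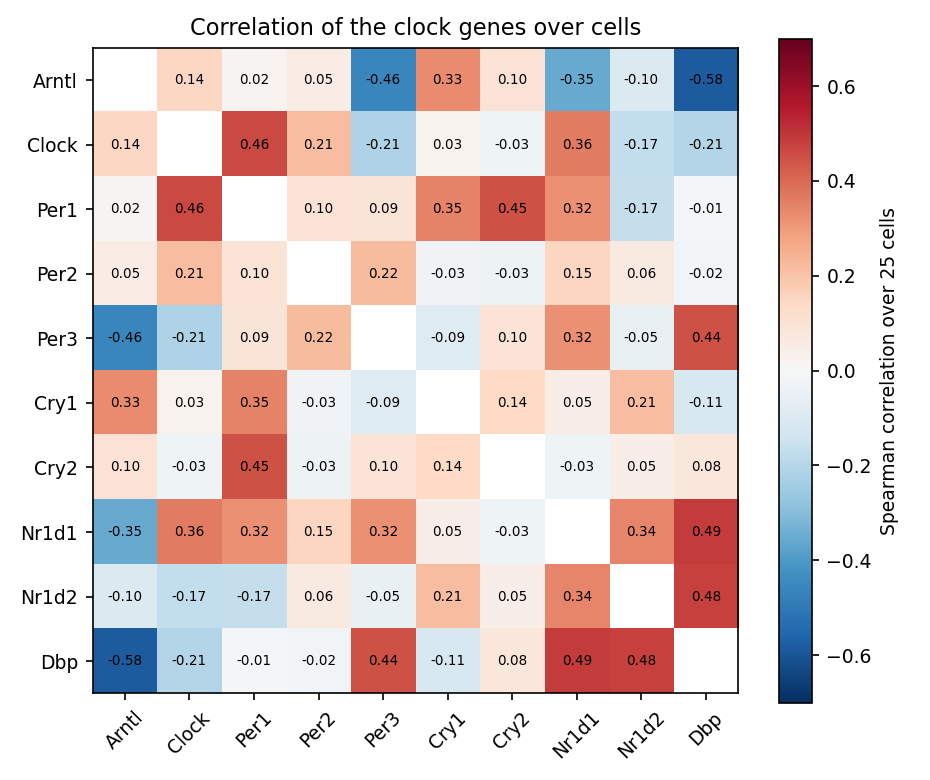
Spearman correlation of each pair of clock genes over the 25 cells, with its value in each square. Dbp stands at -0.58 with Arntl and at 0.49, 0.48 and 0.44 with Nr1d1, Nr1d2 and Per3.

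Single cells show both ends of the pattern of Arntl and Dbp. Cell 43 had Dbp at 141 RPKM, Nr1d2 at 100.1 RPKM, Cry1 at 38.9 RPKM, Nr1d1 at 33.0 RPKM and Per3 at 15.9 RPKM, with Arntl and Clock at 0. It was also the cell with the fewest genes detected (3843), a number that Nr1d2 followed inversely. Cell 12 had Arntl at 62.9 RPKM and Cry1 at 52.2 RPKM, with Dbp, Nr1d2, Per2 and Per3 at 0 and Nr1d1 at 0.95 RPKM. Cry1, which lags the other repressors in cycling tissues, was detected in 4 of the 7 cells without Dbp and in 8 of the 16 Dbp cells, and its correlation with Dbp was -0.11. Other cells did not follow the pattern. Cell 17 had Arntl at 49.5 RPKM beside Dbp at 81.3 RPKM, and cell 5, with no Dbp, had the highest Nr1d2.

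Relatives of Dbp were read next, since DBP, TEF and HLF form the PAR bZIP family that binds D-boxes and NFIL3 competes for the same site. Tef was detected in 16 cells (median 18.8 RPKM, highest 65.0 RPKM in cell 15), Hlf in 6 and Nfil3 in 11. At least 1 of the 3 family members was detected in 19 cells, and all 3 in 6. The Spearman correlation with Dbp was 0.43 for Tef and 0.436 for Hlf, and 0.138 for Nfil3, and 8 of the 11 Nfil3 cells were Dbp cells. Of 11 transcription factor genes read beside the core set (partners and paralogues, ROR receptors, PAR bZIP genes and Nfil3), 9 had a positive correlation with Dbp, with a median of 0.287, where 43.6% of 12891 genes were positive and the median was -0.0341. Tef, Hlf and Bhlhe40 were 0.4 or above, as were 1.61% of those genes. Hlf, Nfil3 and the size of 0.4 were picked after the values were seen.

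Bhlhe40, whose protein DEC1 represses E-box genes, was the most frequent of these factors, in 19 cells (median 54.5 RPKM), and had a correlation of 0.478 with Dbp. Its paralogue Bhlhe41 reached the level in 14 cells (median 14.9 RPKM). Ciart, an E-box target and repressor, was detected in 11 cells at 15.7 to 200.5 RPKM, was listed at 0 in 13, and was highest in cell 43; it was named after its values were seen. Of the ROR receptor genes, whose proteins activate Arntl, Rora was detected in 6 cells and Rorb in 3, although Rora was above 0 in 16 and Rorb in 13; both were named after their values were seen.

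Some enzymes that set the lifetime of PER and CRY proteins were found in nearly every cell. Of 13 kinase, ubiquitin ligase and related genes measured, 6 were in most cells, as were 13.5% of all symbols in the table. Csnk1a1 and Gsk3b, kinases of clock proteins, were detected in 24 cells each (medians 39.0 and 35.5 RPKM), Fbxw11, a ubiquitin ligase subunit acting on PER proteins, in 21 and the PER kinase gene Csnk1d in 18 (42.6 RPKM). Among 10 cofactors, 2 were in most cells: Hdac3, the deacetylase that works with REV-ERB receptors, in 24 cells (median 85.2 RPKM), and Nono, a PER partner, in 22 (median 85.8 RPKM).

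Of 9 genes that carry light and cAMP signals to the Per genes, 5 were in most cells. They were led by Grin1, an NMDA receptor subunit (21 cells), the CREB coactivator gene Crtc1 (18), the PACAP receptor gene Adcyap1r1 (18) and the kinase gene Sik3 (16). Creb1 itself reached 10 RPKM in none of the 25 cells (taking 3 cells as the limit of a count of 0, a share of up to 12.0%), and was above 0 in 9 at up to 5.66 RPKM; it too was named after its values were seen. Of 8 output genes measured, Klf9 was detected in 18 cells, Tsc22d3 in 16 and Ccrn4l, which encodes the deadenylase-like protein nocturnin, in 13. Over these 7 lists 19 of 51 genes were in most cells, as were 13.5% of all symbols in the table. The lists were chosen with earlier results of these data known.

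**Figure D5:**
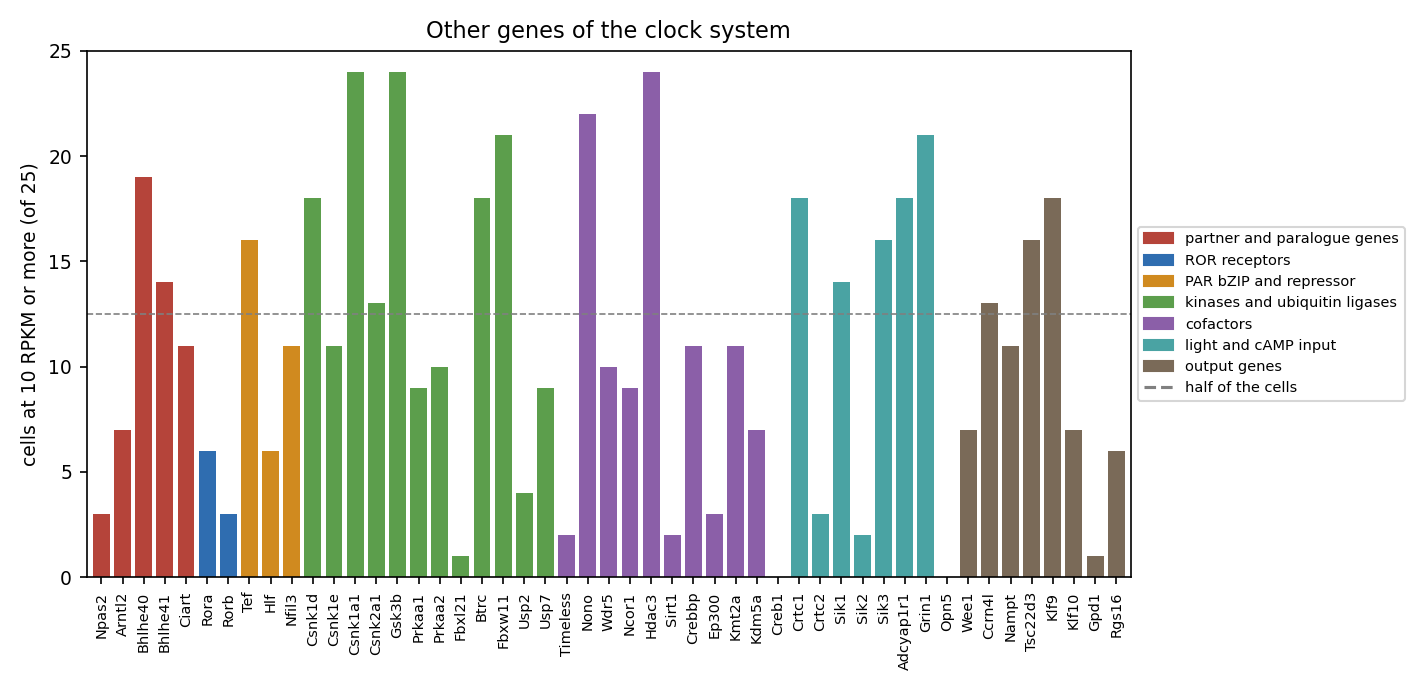
Number of the 25 cells in which each of 49 other genes of the clock system reached 10 RPKM, as bars coloured by list, with a dashed line at the middle of the range. Csnk1a1, Gsk3b and Hdac3 reach 24 cells, while Rora and Rorb reach 6 and 3.

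For each clock gene detected in most cells, the genes of most similar pattern were sought by Spearman correlation over the 25 cells among 4179 others detected in most cells. Arntl was closest to the adenosine kinase gene Adk (0.736), Zfp207 (0.664) and Gga2 (0.652). Per1 was closest to Atg2a (0.741), Taz (0.741) and Slc4a3 (0.701), Cry1 to the stress factor gene Ddit3 (0.706), Gnb2l1 (0.619) and Vegfb (0.602), and Cry2 to the syntaxin gene Stx1a (0.726), Celf5 (0.657) and Zdhhc1 (0.65). Nr1d1 was closest to Lamtor4 (0.721), Hn1 (0.693) and Nudt14 (0.616). Nr1d2 and Dbp shared the RNA polymerase subunit gene Polr2g (0.677 and 0.605); Nr1d2 was further close to H3f3b (0.649) and BC071253 (0.601), and Dbp to Cyc1 (0.603). No clock gene was among the 3 closest of another. With so many genes compared over 25 cells, the highest correlations are large by selection, and they are given as descriptions only.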

How the data were processed

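Messenger RNA was measured in 25 single cells by Smart-Seq2 and Nextera XT, per the labels' protocols. The authors deposited 1 table that is named as gene counts but holds RPKM by its values: they are decimals, low values fall on steps of whole reads, and the sums of value times exon length vary by 1.65% (coefficient of variation) over cells. The submitters' processing notes name featureCounts 1.4.6, TopHat2 2.0.14, SAMtools 0.1.19, bcl2fastq and Picard 2.5.0, and the builds GRCm38 and mm10, without their roles. No source used here gives the annotation or the use of strand.

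Of 33082 rows, 26 with date numbers for names were left out, and 755 repeated symbols were each represented by their row of highest sum. Exon lengths, gene positions and overlaps came from GENCODE M21 (GRCm38), with a length for 22754 symbols (73.6%). Those sums exceeded the value expected from the authors' own gene lengths by a factor between 1.384 and 1.467, so read numbers are estimates. Depth was read from the steps of low values, and this step was off by at most 0.144% on simulated data for 22754 genes at 12 depths, where the lengths are known exactly. Analysis used Python 3.11.15, pandas 2.3.3, NumPy 2.4.6 and SciPy 1.17.1. Log values are log2(RPKM + 1).

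The members and lists were chosen with earlier results of these data known. Genes named outside the core set were, from each list, up to 4 found in most cells (the mean decided ties), and for each core gene in most cells the 3 of most similar pattern; a few genes are not reported here. The activity, glucocorticoid and cell type lists and the overlapping genes were read beside these, and genes outside the rule were named after their values were seen. Csnk2b was not analysed here, and no protein sequences were used here. Alternatives were other detection levels, pseudocounts, scaling, filters, correlation measures and cells left out.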

Additional observations from a re-analysis of the deposited data

How the results depend on the processing

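The median of 5 clock genes per cell became 7 at a level of 1 RPKM. It stayed at 5 at 5 RPKM and was 4 at 20 RPKM, within the spread over cells. The number of clock genes in most cells, 7 at 10 RPKM, was 3 at 20 RPKM and 8 at 1 or 5 RPKM. Clock was found in 12 cells at 1 RPKM, 6 at 5 RPKM and 0 at 20 RPKM, so its count rests on the level. At 20 RPKM Per2, Per3 and Nr1d1 were left in 2, 1 and 9 cells. Rescaling every cell to the same sum, or summing repeated symbols, moved no gene's count by over 1.5 times. Without the 6 cells low in Malat1, an alternative chosen after seeing the data, Nr1d2 was in 8 of the remaining cells and Clock in 1. The median correlation over the 45 pairs ranged from 0.0252 (without cell 7) to 0.0968 (without cell 17). Arntl and Dbp stayed between -0.65 (without cell 17) and -0.547 (without cell 5), and between -0.59 and -0.481 under other measures, scaling and without the cells low in Malat1. The other 7 pairs examined kept their sign in each of these settings, with Per3 and Dbp between 0.31 and 0.573. A pseudocount of 0.1 raised the SD of log2 levels by over 1.5 times for every gene except Cry2 and Dbp. A value of 0 allowed the most RPKM for Dbp, the shortest gene, at most 1.17 in the shallowest cell. That is above the alternative level of 1 RPKM but below 10 RPKM, and it covers counting error only.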

Other observations

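The 4 roles of the loop (activators, period genes, cryptochromes and REV-ERB receptors) each had a gene at 10 RPKM or more in 8 of the 25 cells. At least 1 repressor gene (period, cryptochrome or REV-ERB) was detected in all 25 cells, and an activator in 13. These counts are not like for like, since 2 activator genes stand beside 3 period, 2 cryptochrome and 2 REV-ERB genes. Both activators were listed at 0 in only 3 cells. Of the single roles, cryptochromes were missing at 10 RPKM from 3 cells, period genes and REV-ERB receptors from 5 each, and activators from 12.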
